A study of Mus musculus with 4 samples.

Results

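The genes described here are 10 AP-1 and immediate early genes: Fos, Fosb, Fosl1, Fosl2, Jun, Junb, Jund, Atf3, Egr1 and Egr2. They were listed by name, out of 21938 protein-coding genes of GENCODE M21 on the assembled mouse chromosomes (GRCm38, the build called mm10), and the data are the peaks in each gene body and the 10 kb on either side. Peaks came from CUT&RUN, in which an antibody guides a nuclease to a DNA-bound protein and the released fragments are sequenced, here with an antibody against the V5 tag. A total of 2 Foxr2 p53LOF replicates came from neurospheres of 1 line, grown from the GFP-positive cells of a tumor that arose after in utero electroporation into the ganglionic eminences of C57BL/6J embryos. The electroporated plasmids carried V5-tagged FOXR2 with GFP behind the ubiquitous CAG promoter and a CRISPR guide against Trp53. The other 2 libraries, the V5 control, came from another electroporation model with the genotype label H3.3G34R and no V5 tag, so tag, genotype and tumor differ together and cannot be told apart. Each sample held 500000 cells fixed in 0.1% formaldehyde for 1 minute, and the labels do not say whether replicates were separate cultures.

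AP-1 is a family of paired leucine zipper proteins: a Fos protein joins a Jun protein, and the pair binds DNA at TGACTCA, while Atf3 belongs to a related family. Immediate early genes are transcribed within minutes of a growth factor, stress or synaptic signal without new protein synthesis, and Egr1 and Egr2 are zinc finger factors of this class. Serum response factor, bound to the CArG box (CC, then A or T 6 times, then GG) beside an ETS factor of the Elk type, drives many of them. The medium of Foxr2 p53LOF neurospheres contained EGF, bFGF and PDGF, and peaks of a tagged protein measure its position on DNA, not the transcription of the gene.

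All 10 genes had at least 1 peak in each Foxr2 p53LOF replicate and none in either control replicate. Among all protein-coding genes the same call held for 66.2% and 66.9% in the tagged replicates, and for 0.524% and 0.260% in the untagged ones. The 4 counts of genes with a peak were thus 10, 10, 0 and 0, and the exact two-sided permutation test over the 4 libraries gave p = 0.33, the smallest that 2 against 2 allows. The Foxr2 p53LOF lists were also longer, with 31909 and 38580 peaks against 308 and 124 in the control lists. The Foxr2 gene, carried with the tag by the vector, had a peak with a fold of 5.74 in replicate 1 and 6.24 in replicate 2, and none in a control. Median folds over all peaks of these 2 replicates were 5.30 and 4.93.

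The fold enrichment of a peak is the number of fragments at its summit plus 1, divided by the library background plus 1. Its 95% interval is the exact Poisson interval of those fragments and covers counting error only. Background was 1.26 in replicate 1 and 2.04 in replicate 2, so a fold above 6 took 13 and 18 fragments. The filter of the study, which asks for a fold and a −log10 q above 6, a length under 10000 bp and no control peak over at least 10 bp, kept 19 of the 34 peaks at these genes in replicate 1 and 19 of 39 in replicate 2. Each of the 15 and 20 peaks that failed had a fold of 6 or less.

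Where filtered peaks of both replicates overlap, the shared stretch is called a reproducible site. It is a promoter site if it comes within 1 kb of an annotated coding start of the gene itself. Such sites were found in the region of all 10 genes, against 50.0% of protein-coding genes. At the promoter, 9 of 10 had one, against 39.2%, and the exception was Fosl1. Before the filter, promoter peaks were present at 9 of 10 genes in replicate 1 (background 53.2%) and 10 of 10 in replicate 2 (54.2%). These shares are descriptions, since the 10 genes were chosen with earlier results of these data known.

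**Figure D1:**
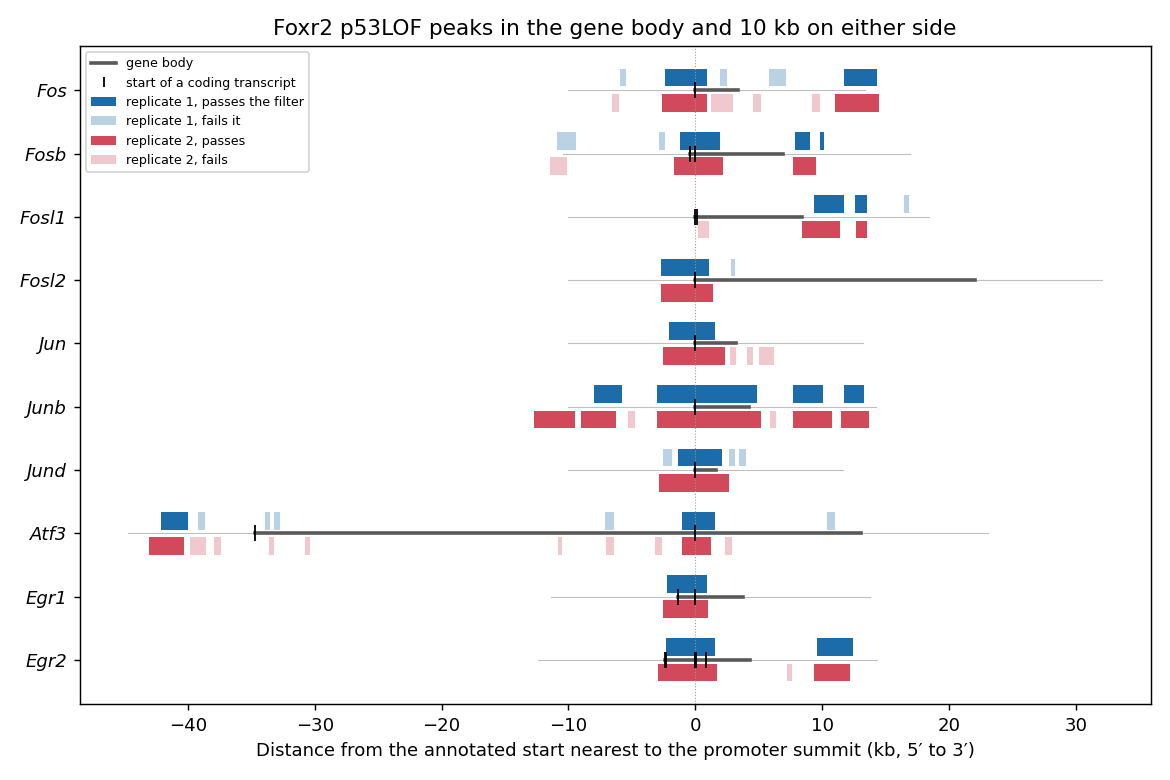
Peaks of both Foxr2 p53LOF replicates along each gene, with distance in kb from the annotated start nearest to the promoter summit, read 5′ to 3′ on the strand of the gene. Dark bars pass the filter and pale bars fail it, thick lines are gene bodies and ticks are coding starts. Promoter peaks pass in both replicates at 9 genes, and the filtered peaks of Fosl1 have their summits beyond its end.

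Fos, the partner of Jun in classical AP-1, lies at chr12:85473890-85477273 on the plus strand. Its promoter site, chr12:85471485-85474800, had a fold of 16.3 in replicate 1 (36 fragments, interval 11.6 to 22.5) and 24.3 in replicate 2 (73 fragments, 19.1 to 30.5). The lower of these folds stood at percentile 85.7 among 7807 promoter sites. The summits lay 197 and 209 bp upstream of the start, 12 bp apart. A CArG box with the letters CCATATTAGG, on chr12:85473581-85473590, fell inside the site and centred 305 bp upstream of the start, which is the place of the well-known serum response element of this gene. The 200 bp around the replicate 2 summit are printed because they hold that box (capitals), which begins at the first base of the window.

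Fos promoter, chr12:85473581-85473780, plus strand: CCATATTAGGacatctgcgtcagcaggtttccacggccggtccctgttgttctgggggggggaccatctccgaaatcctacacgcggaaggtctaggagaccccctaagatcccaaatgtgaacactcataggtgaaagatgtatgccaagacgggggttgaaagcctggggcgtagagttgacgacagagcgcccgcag

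A separate Fos site downstream of the gene, chr12:85485581-85488230, showed folds of 9.28 and 11.8. It had no start of another gene within 1 kb, with summits 12706 and 12473 bp from the Fos start, and it stood at percentile 66.7 among the 4136 sites that are not at promoters. Its window, printed as the stronger of the 2 sites here with no other gene start nearby, contains the ETS core CCGGAA in capitals at chr12:85486375-85486380, 14 bp from the replicate 2 summit. It was the only one of the 9 windows away from the promoters of the 10 genes with that core, which 3.55% of the 4136 other sites and 11.9% of promoter sites held. Both replicates also had weaker overlapping peaks in the gene body, with folds of 5.30 and 5.91, which failed the fold minimum.

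Fos downstream site, chr12:85486263-85486462, plus strand: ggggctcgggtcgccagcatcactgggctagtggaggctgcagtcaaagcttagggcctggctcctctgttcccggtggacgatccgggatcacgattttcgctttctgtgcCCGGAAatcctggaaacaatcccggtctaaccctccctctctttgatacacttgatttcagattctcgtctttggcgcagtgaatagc

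Fosb, a Fos family member whose splice form accumulates in stimulated neurons, lies at chr7:19302696-19310051 on the minus strand. The promoter site, chr7:19307653-19310790, had folds of 19.9 (44 fragments, interval 14.6 to 26.5) and 27.9 (84 fragments, 22.3 to 34.5), at percentile 92.4. The site reached over the annotated starts, but both summits were inside the gene in an intron, 1165 and 1157 bp past the nearest start and 8 bp apart. The window there held none of the motifs searched and is printed because this summit, one of the strongest of the 10 genes, is not at a start.

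Fosb intron summit, chr7:19308343-19308542, minus strand: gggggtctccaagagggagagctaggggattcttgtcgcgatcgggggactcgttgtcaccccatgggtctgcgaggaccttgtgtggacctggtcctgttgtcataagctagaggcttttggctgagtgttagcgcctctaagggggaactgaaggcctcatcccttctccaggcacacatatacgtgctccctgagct

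A weaker Fosb site downstream, chr7:19300564-19301715, had folds of 8.39 and 8.21 and lay within 1 kb of the start of Gm26802, a long noncoding RNA.

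Fosl2, the Fos family member also called Fra-2, lies at chr5:32135801-32157842 on the plus strand. Its promoter site, chr5:32133125-32136854, had folds of 14.6 (32 fragments, interval 10.1 to 20.4) and 16.1 (48 fragments, 12.0 to 21.2), with summits 203 and 222 bp upstream of the start. As at Fos, both summits of Fosl2 lay close upstream of the GENCODE start, here 19 bp apart. The promoter window that RefSeq gives for Fosl2, chr5:32136222-32136521, lies past that start and holds neither summit. The gene model Gm10463 starts within 1 kb of the same site. Its 22042 bp body held no filtered peak beyond the promoter site, and a single weak peak in replicate 1 had a fold of 4.42.

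Fosl1, or Fra-1, a Fos family member often raised in invasive tumors, lies at chr19:5447547-5455946 on the plus strand and stood apart from the others. No promoter peak was called in replicate 1, and the replicate 2 peak, chr19:5447728-5448585, had a fold of 4.60 with 13 fragments (interval 2.60 to 7.63) and a −log10 q of 5.23, below both minimums. The interval includes 6, so a fold above the minimum cannot be told from this one at this depth. Sites of Fosl1 lay downstream and at other genes: chr19:5456865-5458922, with folds of 7.95 and 8.87, was within 1 kb of the start of Ccdc85b. The other, chr19:5460172-5461044, had folds of 7.51 and 7.88 and lay at the start of Fibp. The site at Fibp had the lowest replicate 1 fold of the 18 reproducible sites at the 10 genes.

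Jun, the founding Jun protein and target of the JNK kinases, lies at chr4:95049034-95052222 on the minus strand. The promoter site, chr4:95050704-95054267, had folds of 12.4 (27 fragments, interval 8.30 to 17.8) and 13.8 (41 fragments, 9.99 to 18.6), at percentile 70.3. Its summits were 611 and 929 bp upstream and 318 bp apart, so that the replicates placed the strongest point differently within 1 site. The antisense gene Junos starts within 1 kb, and peaks carry no strand, so the 2 starts cannot be told apart. The window at the replicate 1 summit held the longer ETS sequence CCGGAAGT (capitals) at chr4:95052809-95052816, as did 1.33% of all promoter sites at that summit, and the window at the replicate 2 summit did not (1.41% of all).

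Jun promoter, replicate 1 summit, chr4:95052733-95052932, minus strand: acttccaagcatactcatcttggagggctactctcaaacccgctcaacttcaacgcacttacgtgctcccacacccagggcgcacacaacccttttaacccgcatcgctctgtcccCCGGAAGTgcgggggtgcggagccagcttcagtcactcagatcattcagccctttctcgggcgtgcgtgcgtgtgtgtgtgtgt

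Jund, the Jun protein that is present in most resting cells, lies at chr8:70698949-70700616 on the plus strand. Its promoter site, chr8:70697601-70701058, had folds of 23.4 (52 fragments, interval 17.6 to 30.6) and 30.2 (91 fragments, 24.4 to 37.0), and the lower fold stood at percentile 95.8, rank 312 of 7807. The site covered 100% of the annotated gene, which is only 1668 bp long, and the summits were 360 and 373 bp upstream of the GENCODE start. The promoter window that RefSeq gives for Jund, chr8:70697489-70697788, lies farther upstream, so both summits fall past that start. An antisense gene, Gm11175, starts within 1 kb of the site. Jund had no other reproducible site in its region.

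Junb, which often restrains growth where Jun drives it, lies at chr8:84974484-84978718 on the minus strand. Its promoter site had the lowest fold of the 9 in replicate 1, 10.6 (23 fragments, interval 6.88 to 15.7), and 15.4 in replicate 2 (46 fragments, 11.4 to 20.5). It was also the longest, chr8:84973860-84981713, a length of 7854 bp at percentile 99.9 of promoter sites, and it covered 100% of the gene. Its summits lay not at the start but 2599 and 2244 bp past it, 791 and 436 bp beyond the end of the coding transcript. The window at the replicate 2 summit is printed because it marks this off-start position, and it held none of the motifs.

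Junb summit beyond the coding transcript, chr8:84976374-84976573, minus strand: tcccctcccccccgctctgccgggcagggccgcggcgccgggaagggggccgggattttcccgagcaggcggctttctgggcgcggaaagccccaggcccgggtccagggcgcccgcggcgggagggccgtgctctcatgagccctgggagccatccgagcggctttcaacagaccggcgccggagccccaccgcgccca

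Junb had 3 further reproducible sites, the most of the 10 genes. A site at chr8:84968616-84970995 had folds of 12.8 and 16.8, both above those of the Junb promoter site, and lay within 1 kb of starts of Prdx2, Rnaseh2a and Gm49661. Another, chr8:84965400-84967012, had folds of 10.6 and 16.1 at Rnaseh2a. The third, upstream at chr8:84984970-84986727, had folds of 9.28 and 7.88 with summits 7082 and 7256 bp before the start and no other gene start within 1 kb. A further upstream peak of replicate 2, chr8:84988200-84991438, had a fold of 17.4 and lay at a start of Hook2, and the part shared with replicate 1 lay beyond the 10 kb.

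Atf3, a stress-induced leucine zipper factor, spans chr1:191170296-191218039 on the minus strand, with annotated coding starts at 191218039 and, inside the gene, at 191183340. The promoter site, chr1:191182102-191184354, was at the inner start, with folds of 14.6 (32 fragments, interval 10.1 to 20.4) and 19.1 (57 fragments, 14.5 to 24.6). Summits were 400 bp before and 239 bp past that start, 639 bp apart, the widest gap of the 9. Near the outer start there were weak overlapping peaks with folds of 3.98 and 3.29, and a replicate 1 peak 1633 bp past it with a fold of 4.42 and no partner in replicate 2. All 3 failed the filter. Atf3 also had an upstream site, chr1:191223609-191225474, with folds of 11.5 and 10.2 and summits 5 bp apart, at the start of the long noncoding RNA D730003I15Rik.

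Egr2, also known as Krox20 and needed for hindbrain segments and myelin, lies at chr10:67535475-67542188 on the plus strand and has 6 annotated coding starts. The promoter site, chr10:67535583-67539415, had folds of 16.8 (37 fragments, interval 12.0 to 23.0) and 20.0 (60 fragments, 15.4 to 25.7), at percentile 86.8. It began at the second annotated start, 67535583, and covered the later ones but not the first, at 67535475. The summits, 40 bp apart, were 221 and 261 bp upstream of an inner start, within an intron of longer transcripts. Of 12 RefSeq promoter windows (GRCm38.p6, 300 bp each) found for 8 of the 10 genes, 4 held a CArG box and all 4 belonged to Egr2, against 1.63% of 32817 windows. Of these 4, 3 overlap each other and share sequence, and the fourth, which overlaps none of them, is printed here. It takes in the replicate 2 summit and has in capitals, in order, CCGGAA on both strands overlapping (TTCCGGAA), the CArG box CCTTTTTTGG, and CCGGAA again.

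Egr2 promoter window of RefSeq, chr10:67537316-67537615, plus strand: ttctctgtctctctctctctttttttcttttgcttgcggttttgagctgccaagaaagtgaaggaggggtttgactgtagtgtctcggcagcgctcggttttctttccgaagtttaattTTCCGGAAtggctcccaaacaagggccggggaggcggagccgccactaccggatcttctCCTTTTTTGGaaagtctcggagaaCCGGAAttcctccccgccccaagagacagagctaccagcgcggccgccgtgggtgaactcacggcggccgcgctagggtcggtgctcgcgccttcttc

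A downstream Egr2 site, chr10:67547428-67550039, had folds of 12.8 and 17.1 and lay at the start of Ado, the thiol dioxygenase gene.

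Across these genes the sequence letters varied with the window. In the 200 bp around the replicate 2 summit, a CArG box was found in 1 of 9 promoter windows (Fos), against 0.704% of all promoter sites, and the ETS core in 1 of 9 (Egr2), against 11.9%. With the replicate 1 summit the counts were 0, against 0.653% of all promoter sites, and 2 (Egr1 and Jun), against 11.8%. With 300 bp they were 3 and 3, with the CArG box at Fos, Egr1 and Egr2 against 1.17% of all promoter sites and the ETS core at Egr1, Egr2 and Junb against 19.9%. Both strands were searched, and both other windows were added after the data were seen. The AP-1 sequence TGACTCA was in 0 of 9 promoter windows and 0 of 9 windows away from promoters, where 1.33% of promoter sites and 3.24% of other sites held it. The CRE TGACGTCA and the EGR sequences GCGTGGGCG and GCGGGGGCG were in 0 of 9 promoter windows, against 0.33%, 0.602% and 1.36%. The RefSeq promoter windows follow the starts of RefSeq, and those of Fosl2 and Jund and the printed one of Egr2 hold no GENCODE coding start. In the RefSeq windows GCGGGGGCG was present in 2 of 12 (Fosb and Fosl2), against 2.91% of 32817 windows. GCGTGGGCG, TGACTCA and the CRE were in 0 of 12, against 0.612%, 5.20% and 1.79%. The ETS core was in 1 of those 12 (Egr2), against 14.9%. Median GC content was 68.5% in the 9 windows and 60.5% over all promoter sites.

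**Figure D2:**
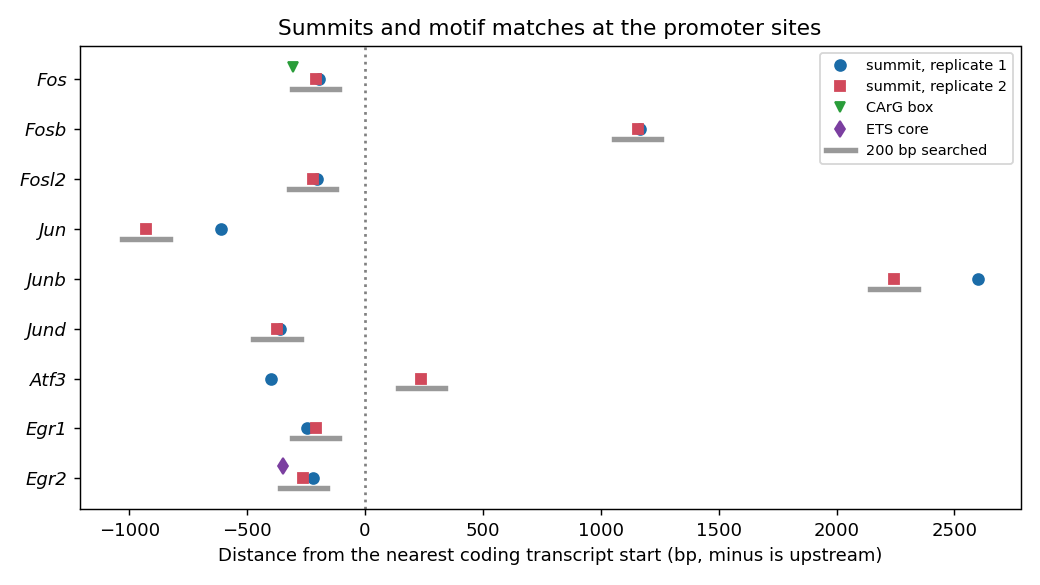
Position of the summit in each replicate against the nearest coding start in bp, minus being upstream, for the 9 genes with a promoter site. Grey bars mark the 200 bp searched and triangles and diamonds the CArG box and ETS core found there. Summits are within 1 kb of a start in both replicates at 7 genes, and past the start by more at Fosb and Junb.

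Egr1, the zinc finger factor also called Zif268, lies at chr18:34859823-34864984 on the plus strand and had the highest promoter folds of the 10 genes in both replicates. Its site, chr18:34858945-34862102, had a fold of 23.9 in replicate 1 (53 fragments, interval 18.0 to 31.1) and 35.5 in replicate 2 (107 fragments, 29.1 to 42.8). The lower fold stood at percentile 96.1, rank 280 of 7807. Summits were 245 and 209 bp upstream of the second annotated start, 36 bp apart, and inside the untranslated part of the longer transcript. Egr1 had no other reproducible site in its region.

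In the order of the lower fold the 9 promoter sites ran Egr1, Jund, Fosb, Egr2, Fos, Fosl2 and Atf3 (equal), Jun and Junb. Neighbours in this order had overlapping intervals in each replicate, so their order is within counting error. In replicate 1 the interval of Egr1 lay wholly above those of Jun and Junb, and that of Jund above Junb. In replicate 2 Egr1 lay above Egr2, Atf3, Fosl2, Junb and Jun, both Jund and Fosb above Fosl2, Junb and Jun, and Fos above Jun. Intervals cover counting error only, and with 2 replicates no test per gene was made.

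**Figure D3:**
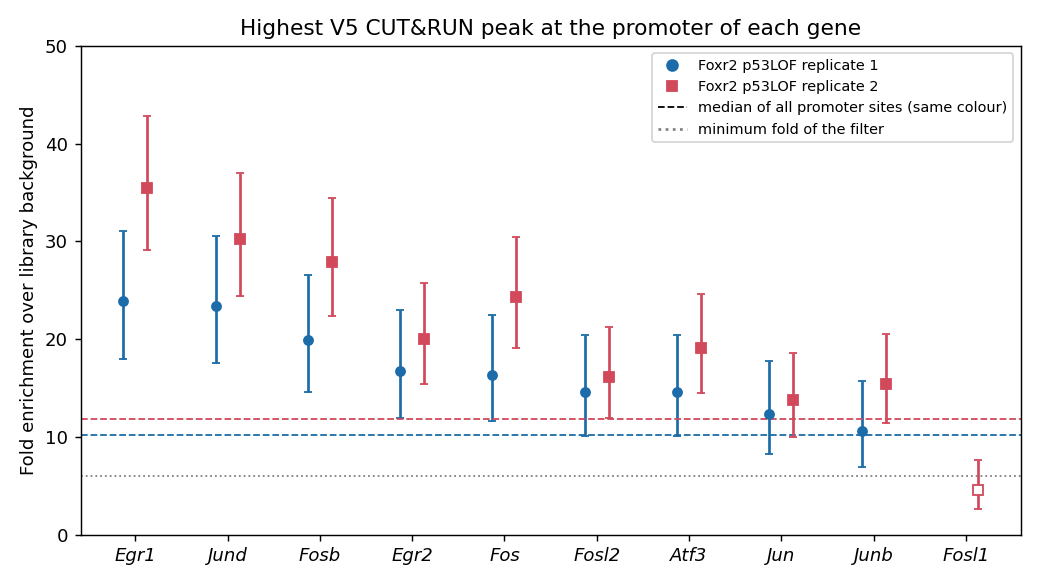
Fold enrichment of the highest promoter peak of each gene in the Foxr2 p53LOF replicates, with exact Poisson 95% intervals of the fragments as bars. Dashed lines are the medians of all promoter sites, 10.2 and 11.8, the dotted line is the minimum fold of 6, and the open symbol at Fosl1 failed the filter. All 9 genes with a site lie above the median of their replicate, and genes are ordered by the lower fold, from Egr1 to Junb, although Jun was the lowest in replicate 2.

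As a description with no test, the median fold of the 9 promoter sites in the weaker replicate was 16.3, against 9.72 over 7807 promoter sites. Their single percentiles among those sites ran from 57.8 at Junb to 96.1 at Egr1. Their median length was 3458 bp against 1869 bp. Every one of the 9 was higher in replicate 2, as were 74.5% of all promoter sites, with a median ratio of 1.31 against 1.15. The 9 sites away from the gene's own promoter had a median of 9.28, with a median of 56 bp between the summits of the replicates. They are a mixed group, since 5 of them (both of Fosl1, both downstream of Junb and that of Egr2) are promoter sites of other coding genes, and the medians of single classes were 9.72 at promoter sites and 7.95 at the 4136 other sites.

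**Figure D4:**
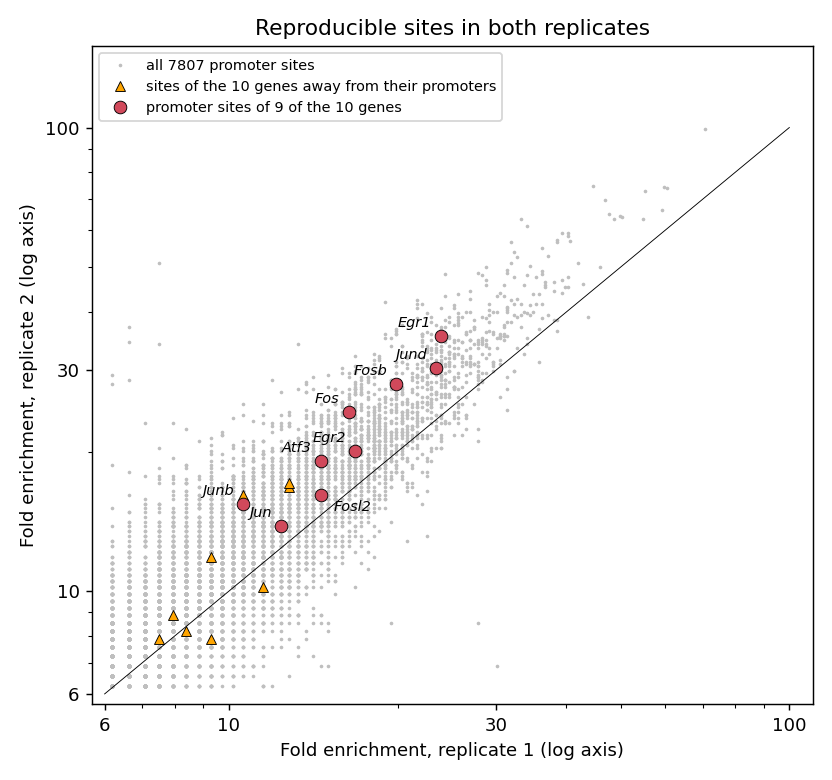
Fold of each reproducible promoter site in replicate 1 and replicate 2 on log axes, with the diagonal of equal folds. Grey dots are all 7807 promoter sites, circles the 9 promoter sites of the genes described and triangles their 9 sites away from promoters. All circles lie above the diagonal, within the cloud of the grey dots.

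Sites away from the promoter were found at 6 of 10 genes (Fos, Fosb, Fosl1, Junb, Atf3 and Egr2), against 25.8% of protein-coding genes. The count fell to 3 with a fold minimum of 10 (Junb, Atf3 and Egr2) and to 3 with 5 kb on either side (Fosb, Fosl1 and Junb). There were 9 such sites, 7 downstream, 2 upstream and 0 in the gene body. Of the 9, 7 lay within 1 kb of a start of another gene, so only the Fos downstream site and the Junb upstream site had no other start nearby. Both summits fell within 1 kb of a start of the gene itself at 7 of 10 genes, against 36.5% of all protein-coding genes, with Fosb and Junb missing because of the summit and Fosl1 for lack of a site.

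Other genes of the pathway were read from a list of 33. A reproducible promoter site was present at 21 of them (63.6%), against 39.2% of protein-coding genes, and no control library had a peak at any. Among AP-1 partners 3 of 6 had one. Atf7, a CRE-binding leucine zipper factor on chromosome 15, was the highest of the list, with folds of 32.3 and 53.9, while Jdp2, a repressor that pairs with Jun, had only 7.51 and 7.23. The lymphoid factors Batf, Batf2 and Batf3 had none.

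Of 15 further immediate early genes, 11 had a promoter site. Ier2 had folds of 18.6 and 21, Egr3 of 15.5 and 27.3, the MAP kinase phosphatase gene Dusp1 of 13.7 and 24.6, and the mRNA decay factor gene Zfp36 of 12.8 and 14.8. The orphan nuclear receptor genes Nr4a1, Nr4a2 and Nr4a3 all had one, with folds of 11.5, 10.2 and 12.4 in replicate 1. Arc and Npas4, which respond to neuronal activity, had no promoter peak in either replicate, and Egr4 had one in replicate 1 alone, with a fold of 4.42. Klf4 had peaks with folds of 7.95 and 5.59, of which the second failed the filter.

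Of 9 regulators 5 had a promoter site, among them Srf, the factor that binds the CArG box, with 16.8 and 26.6, and its ETS partner Elk4 with 15.9 and 15.4. Creb1, which binds the CRE, had 14.1 and 13.8. Elk1, Elk3, Mrtfb and the Egr repressor Nab2 did not have one. Elk1 had promoter peaks with folds of 3.53 and 7.56 and Elk3 of 3.98 and 6.24, of which the first of each failed the fold minimum. No promoter peak of Mrtfb or Nab2 exceeded it. Of the JNK kinases, which phosphorylate Jun, Mapk8 and Mapk9 had sites with folds of 8.39 and 10.8 and of 8.39 and 11.2, and Mapk10 had none.

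**Figure D5:**
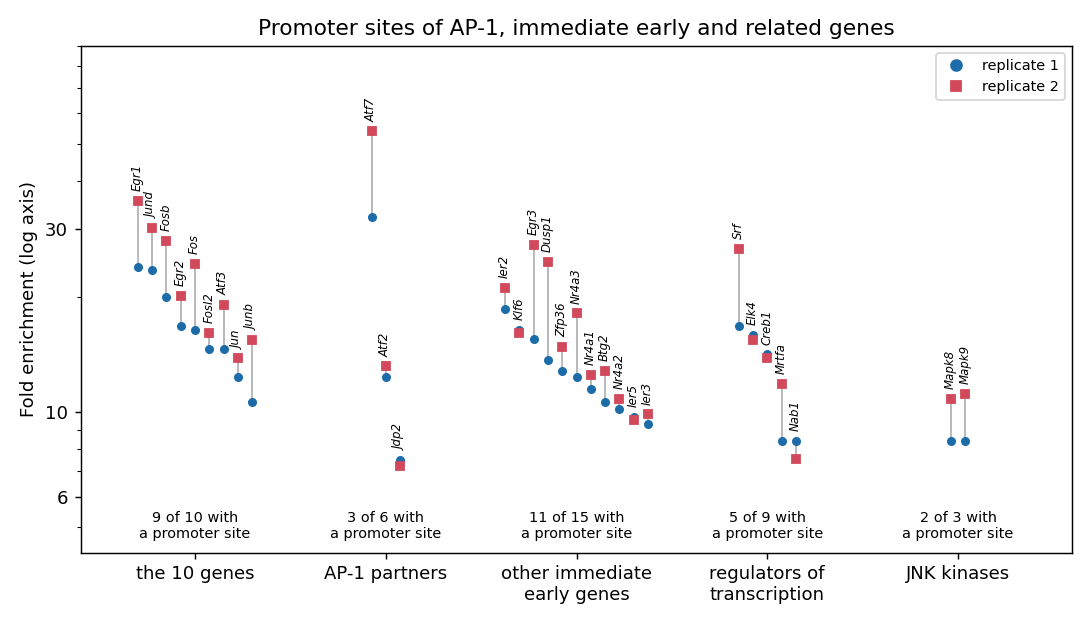
Folds of the promoter sites of the 10 genes and of the 4 groups of related genes, on a log axis, with a line joining both replicates of a gene. The count of genes with a promoter site stands under each group. Among the related genes Atf7 lies highest and Jdp2 lowest (7.51 and 7.23) in both replicates, and next to Atf7 come Ier2 in replicate 1 (18.6) and Egr3 in replicate 2 (27.3).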

How the data were processed

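V5 CUT&RUN was run on 2 Foxr2 p53LOF and 2 V5 control replicates, grouped by the sample labels. The authors processed reads with GenPipes: trimming with Trimmomatic (v0.39), alignment to mm10 with BWA (v0.7.17), removal of duplicates with Picard (v2.26.6) and peak calling per library with MACS2 (v2.2.7.1). No input library is named. The deposited fold enrichment is a ratio that the authors made with MACS2, and the −log10 of p and q and the score, as deposited, come from the same run.

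The library background was searched from 0.3 to 4 in steps of 0.0005. The value kept was that at which folds best gave whole fragments within 0.02 whose Poisson p matched the deposited p. Whole fragments were found for 99.97% of peaks in each Foxr2 p53LOF list and for 97.4% and 96.0% in the control lists. Sequencing totals were left out, so precision comes from the fragments at each summit. Multiome and RNA-seq data, and the step that intersects peaks with open chromatin, were not used here. The background recovery, the overlap of replicates and the classes of position were tested on simulated data, and the motif search on planted sequences. The other steps had no such test.

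Filters, sites, promoters (1 kb) and gene regions (10 kb) follow the definitions in the text, with GENCODE M21 genes and positions counted from 1. Sequence came from RefSeq's GRCm38.p6. Motifs were searched on both strands in 200 bp windows around the replicate 2 summit and in RefSeq promoter windows; the choice of that summit as the centre was made with the data in view. Analyses used Python 3.11.15 with pandas 2.3.3, numpy 2.4.6 and scipy 1.17.1. The genes named are the 10 listed, the 33 of the pathway list and any gene with a start within 1 kb of a peak. Members and lists were chosen with earlier results of these data known. Alternatives changed the fold and q minimums, control overlap, length limit, overlap, replicates, flank and promoter definition. No minimum on fold or q, folds divided by the level of the chromosome, and other motif windows were added after the data were seen.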

Additional observations from a re-analysis of the deposited data

How the results depend on the processing

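Counts of genes with a reproducible site in the region (10 of 10) or at the promoter (9 of 10) stayed within 1.5 times of these values under every alternative run, as did the counts of genes with a peak per library. The count of genes with a site away from the promoter, 6, moved to 3 with a fold minimum of 10 (Junb, Atf3 and Egr2) and to 3 with 5 kb on either side (Fosb, Fosl1 and Junb). It was 8 with 50 kb on either side and 7 with no minimum on fold or q, and the region count was 9 with a fold minimum of 10, without Fosl1. Of the alternatives for these counts, 53 stayed within 1.5 times and 2 did not. Many of the 53 could not have moved, so the tally is no measure of robustness. No control peak lay at these genes, so changes to the controls could alter nothing, and stricter settings could not lower a control count. Dropping a minimum, the length limit or a Foxr2 p53LOF replicate, or widening the flank, could only add sites, and 10 of 10 cannot rise. Leaving out each replicate in turn gave 10 to 10, 9 to 9 and 6 to 6. Dividing folds by the level of the chromosome put Atf3 after Fosl2, at place 7 in place of 6. No paired analysis was possible because the replicate numbers of the groups name separate lines and the counts come from peak lists with no test per gene. The motif counts rest on the window: the CArG box was in 1, 0 or 3 of the 9 windows (200 bp at the replicate 2 summit, 200 bp at the replicate 1 summit, 300 bp), the ETS core in 1, 2 or 3, CCGGAAGT in 0, 1 or 0 and GCGTGGGCG in 0, 0 or 1. Peaks with under 13 fragments at the summit in replicate 1 or 18 in replicate 2 could not pass the fold minimum.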

Other observations

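Atf7, the strongest of the related genes, lies on chromosome 15, where the median site fold was 1.05 times that of all sites. Chromosomes 1, 6, 7 and 14 had the same level, and chromosome 11 a higher one, 1.15.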
